A study of Homo sapiens with 4 samples.

Results

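The peaks described here lie on the short arm of chromosome 2, between positions 6917026 and 89840629 of the hg38 assembly, an interval of 82.9 Mb. Rows of the authors' 2 deposited peak tables on chromosome 2 were taken when the middle of the peak fell between these positions, which gave 592 of 20556 peaks in the first table and 350 of 13577 in the second. The remaining 804 and 443 peaks of chromosome 2 are the comparison. The interval was chosen from measured values, the fold changes of the second table summarised along the chromosomes. The fold changes of its peaks are therefore given as a description, and no conclusion is drawn from any test on them.

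The libraries were ATAC-seq profiles of Kasumi-1, an established human acute myeloid leukaemia line that carries the t(8;21) translocation. The SETD8 knockout group (guide RNA against SETD8 with CRISPR/Cas9, 2 libraries) was set against the sgNT group (a non-targeting guide by its name, labelled wild type, 2 libraries). Whether the knockout cells were a clone or a pool, how long after editing they were taken, and whether replicates came from separate cultures are not given in the sources used here. Per its headers, the second deposited table compares the knockout and sgNT libraries numbered 2, so it holds 1 library per group. These are called replicate 2 here, although the titles and headers do not say what the number stands for. The libraries behind the first table are not named, and it may share libraries with the second.

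SETD8, whose gene is now called KMT5A, places a single methyl group on lysine 20 of histone H4, a mark tied to chromatin compaction, DNA replication and passage through mitosis. ATAC-seq marks open chromatin with a transposase that inserts adapters where DNA is not wrapped tightly, so reads pile up at promoters of active genes and at enhancers. The number of reads at a peak depends on how open the site is, on how many copies of the DNA the cells hold and on how deeply the library was sequenced. In bulk cells, fewer cells with an open site and a less open site in each cell cannot be told apart, and these tables do not separate openness from DNA copies.

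Of 9 markers of myeloid progenitor leukaemia, CD34, KIT, SPI1, CEBPA, PTPRC and RUNX1 had a promoter peak in both tables, while CD33, MPO and RUNX1T1 had none in either. A marker counted only where a promoter peak was assigned to it. Peaks at a gene's start can go to a neighbouring gene, so markers without a peak were not shown to be closed. Of 9 markers of other cell types, CD8A had a promoter peak in both tables and EPCAM in the first; both genes lie in the segment. The KMT5A promoter on chromosome 12 stayed among the peaks of both tables, with 251 reads in the knockout library and 685 scaled reads in the sgNT library of the second table. Its log2 fold change was -0.82 in the first deposited table and -1.45 in the second, which does not check the labels, since a guide-directed mutation need not close a promoter. Reads in peaks numbered 2091370 for the knockout and 5346757 for the sgNT library of replicate 2, and on the deposited scale the log2 ratio of the totals was -1.23. The median log2 fold change of all peaks in that table was also -1.23, and in the first table it was -0.87. Fold changes are therefore given as deposited and, where stated, relative to the median of all peaks of the same table.

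The DNA at 6 open promoters of the segment is shown first, as the sequence behind the strongest joined peak with a matching window (PPM1B), 3 promoters that were among the lowest or in the mitochondrial group (WDCP, IMMT, MTHFD2), and 2 that stayed above the median of all peaks in both tables (TMEM17, ARHGAP25). Each is the RefSeq GRCh38.p14 window of 250 bases before to 50 after a start site, on the gene's strand, 5′ to 3′, and each overlaps a peak of both tables. Capitals mark matches to any of 9 short motifs, searched on both strands: the CCAAT box (CCAAT), the GC box (GGGCGG), the ETS core (CCGGAAG), the core of the cyclic AMP response element (TGACG), the E-box (CACGTG), the RUNX site (TGTGGT), the TATA box (TATAAA), the YY1 core (AAGATGG) and the NRF1 core (GCATGCG).
PPM1B: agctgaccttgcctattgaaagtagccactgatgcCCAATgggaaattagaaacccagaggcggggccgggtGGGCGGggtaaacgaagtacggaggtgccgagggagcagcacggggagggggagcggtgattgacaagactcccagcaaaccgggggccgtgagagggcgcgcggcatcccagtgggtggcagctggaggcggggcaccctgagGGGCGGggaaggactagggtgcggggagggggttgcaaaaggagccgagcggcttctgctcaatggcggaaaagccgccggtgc
WDCP: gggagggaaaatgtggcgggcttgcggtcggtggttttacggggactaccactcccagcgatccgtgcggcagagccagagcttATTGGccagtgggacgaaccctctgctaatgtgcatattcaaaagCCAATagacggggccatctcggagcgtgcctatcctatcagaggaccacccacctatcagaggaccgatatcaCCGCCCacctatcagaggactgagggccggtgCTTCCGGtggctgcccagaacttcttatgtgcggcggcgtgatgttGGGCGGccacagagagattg
IMMT: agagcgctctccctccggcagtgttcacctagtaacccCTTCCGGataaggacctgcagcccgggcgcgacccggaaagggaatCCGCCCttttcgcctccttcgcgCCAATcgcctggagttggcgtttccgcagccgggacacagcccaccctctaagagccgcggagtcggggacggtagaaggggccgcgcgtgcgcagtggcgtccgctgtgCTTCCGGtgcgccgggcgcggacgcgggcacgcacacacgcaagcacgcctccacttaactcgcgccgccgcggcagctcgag
MTHFD2: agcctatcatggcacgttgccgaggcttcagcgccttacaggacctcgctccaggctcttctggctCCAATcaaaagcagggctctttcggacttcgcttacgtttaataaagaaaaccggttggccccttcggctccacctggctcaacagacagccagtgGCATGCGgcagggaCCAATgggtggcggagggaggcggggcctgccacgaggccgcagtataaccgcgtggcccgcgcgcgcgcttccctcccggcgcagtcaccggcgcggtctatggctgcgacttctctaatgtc
TMEM17: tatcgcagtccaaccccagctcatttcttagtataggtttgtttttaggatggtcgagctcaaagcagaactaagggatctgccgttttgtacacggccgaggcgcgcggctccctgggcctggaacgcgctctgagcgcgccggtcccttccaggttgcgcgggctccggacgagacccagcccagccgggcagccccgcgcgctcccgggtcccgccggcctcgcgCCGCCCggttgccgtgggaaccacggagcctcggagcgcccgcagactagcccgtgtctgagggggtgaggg
ARHGAP25: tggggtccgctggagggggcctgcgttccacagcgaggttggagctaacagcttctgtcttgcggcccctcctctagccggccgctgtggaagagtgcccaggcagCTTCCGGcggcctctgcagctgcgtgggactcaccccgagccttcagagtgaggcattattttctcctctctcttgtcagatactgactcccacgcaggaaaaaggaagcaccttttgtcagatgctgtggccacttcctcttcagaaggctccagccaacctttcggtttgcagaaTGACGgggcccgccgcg

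PPM1B encodes a protein phosphatase, and its window, chr2:44168625-44168924 on the plus strand, held 1 CCAAT box and 2 GC boxes. WDCP encodes a WD repeat and coiled-coil protein, and its window, chr2:24047342-24047641 on the minus strand, held 2 CCAAT boxes, 2 GC boxes and 1 ETS core. IMMT encodes mitofilin, which shapes the inner membrane of mitochondria, and its window at chr2:86195413-86195712 on the minus strand held 2 ETS cores, 1 CCAAT box and 1 GC box. MTHFD2 encodes a mitochondrial enzyme of folate metabolism, and its window at chr2:74198365-74198664 on the plus strand held 2 CCAAT boxes and 1 NRF1 core. TMEM17, a membrane protein of the ciliary transition zone, had a window at chr2:62506146-62506445 on the minus strand with 1 GC box. ARHGAP25, a GTPase-activating protein of blood cells, had a window at chr2:68774660-68774959 on the plus strand with 1 ETS core and 1 cyclic AMP response core. These matches are letters in a window, not sites shown to be bound.

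Base composition and motif shares were compared between window sets as a description. Of 1004 RefSeq windows in the segment, 395 windows of 312 genes overlapped a first-table peak. Their median GC content was 65.3%, against 67.3% in the 537 open windows of the rest of chromosome 2 and 66.0% in all 11824 open windows. The GC box was found in 71.1% of the segment's open windows, against 71.5% on the rest of chromosome 2, 73.4% of all open windows and 45.0% of all 35116 windows. The CCAAT box was found in 35.7%, against 35.8%, 36.9% and 34.6% in the same order of window sets, and the ETS core in 24.1%, against 20.7%, 21.5% and 10.3%. The E-box was in 18 segment windows, or 4.56%, against 11.4%, 10.3% and 7.26%. The RUNX site was in 10.6% of the segment's open windows, against 7.45%, 9.16% and 13.1%, and the TATA box in 2.28%, against 3.91%, 4.37% and 11.5%. The cyclic AMP response core was in 37.7%, against 33.7%, 37.6% and 24.6%. For the YY1 core the shares were 7.59%, against 7.64%, 7.86% and 5.84%, and for the NRF1 core 7.09%, against 6.52%, 7.32% and 3.91%. Windows of 1 gene can overlap, so they are not independent.

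Across the segment, ATAC-seq read levels in SETD8 knockout cells relative to sgNT cells were lower than on the rest of chromosome 2, in both tables and along nearly the whole interval. In the first deposited table, the median log2 fold change of the 592 segment peaks was -1.25 (quartiles -1.56 and -0.95), against -0.94 on the rest of chromosome 2 and -0.85 on the other chromosomes. In the second deposited table, the median over 350 segment peaks was -1.54 (quartiles -1.74 and -1.33), against -1.25 and -1.22. The segment thus lay apart from the rest of chromosome 2 by -0.31 log2 units in the first table and by -0.29 in the second. After the median of 20 bins of peak level had been subtracted, these differences were -0.29 in both tables.

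**Figure D1:**
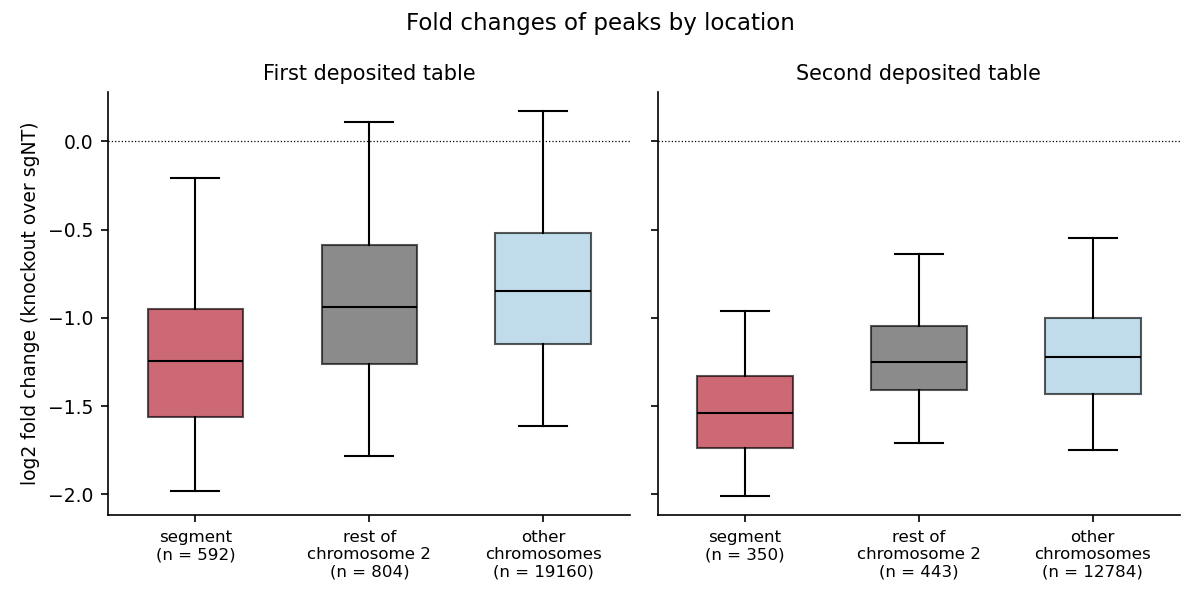
Log2 fold change of knockout over sgNT (vertical axis) for peaks of the segment, of the rest of chromosome 2 and of the other chromosomes, in the authors' first table (left) and second table (right). Boxes span the quartiles with the median as a line, and whiskers run from the 5% to the 95% point; the segment box is the lowest in both panels, with medians of -1.25 and -1.54.

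The shift was spread over most of the segment's peaks. In the first table, 429 segment peaks (72.5%) had a log2 fold change of -1 or less, against 45.3% on the rest of chromosome 2 and a background of 38.9% over all peaks. Of the second table's segment peaks, 328 (93.7%) did so, against 81.5% on the rest of chromosome 2 and a background of 76.1%. Relative to the median of all peaks, 472 segment peaks (79.7%) were below it in the first table, where the background was 49.3%, and 287 (82.0%) in the second, where it was 49%. At least 0.5 below that median were 236 peaks (39.9%; background 13.7%) in the first table and 93 (26.6%; background 6.29%) in the second. At least 0.5 above it were 43 peaks (7.26%; background 17.7%) and 13 peaks (3.71%; background 9.16%). With a limit of -0.5 as deposited, the first table had 538 segment peaks, beside 76.7% of all peaks, and the second 345, beside 95.9%. With a limit of -1.5, these were 178 peaks beside 8.51% and 203 peaks beside 19.5%. At least 1 below the median of all peaks were 55 segment peaks beside 1.98% in the first table and 4 beside 0.206% in the second. All these shares come from the contrast that chose the segment and are descriptive.

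No single segment peak passed the authors' tests. With 1 library per group, the test of the second table had no spread between replicates to draw on. The lack of calls there is therefore not a result about its peaks. The lowest adjusted p of a segment peak was 0.731 in the first deposited table and 0.578 in the second, and the share of all peaks with an adjusted p under 0.05 was 0 in both. At an unadjusted p under 0.05, the first table had 27 segment peaks, beside 1.6% of all its peaks, and the second had 0, beside 0.14%. A limma fit with the 2 tables as replicates, each centred on its median, called 0 of the 298 joined segment peaks (lowest adjusted p 0.31), beside 0.009% of all 11117 joined peaks. Without centring it called 297 of them, beside 96.7% of all joined peaks. This fit uses the fold changes that chose the segment, and the tables may share libraries, in which case its p-values are too small, so nothing is read from these counts.

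Read totals of the second table describe the segment as a whole. Of the reads in peaks, 50153 of 2091370 lay in the segment in the knockout library (2.40%, 95% Wilson interval 2.377 to 2.419), against 160549 of 5346757 in the sgNT library (3.00%, 2.988 to 3.017). On the rest of chromosome 2 the share was 2.76% in the knockout library and 2.79% in the sgNT library. The segment held 46.5% of the knockout library's reads in chromosome 2 peaks, against 51.8% of those in the sgNT library. These are the libraries whose fold changes chose the segment, so the difference in shares follows from that choice and is a description. The intervals cover counting error only, and with 1 library per group the spread between cultures is not in them. The log2 ratio of the segment's shares, knockout over sgNT, was -0.32.

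**Figure D2:**
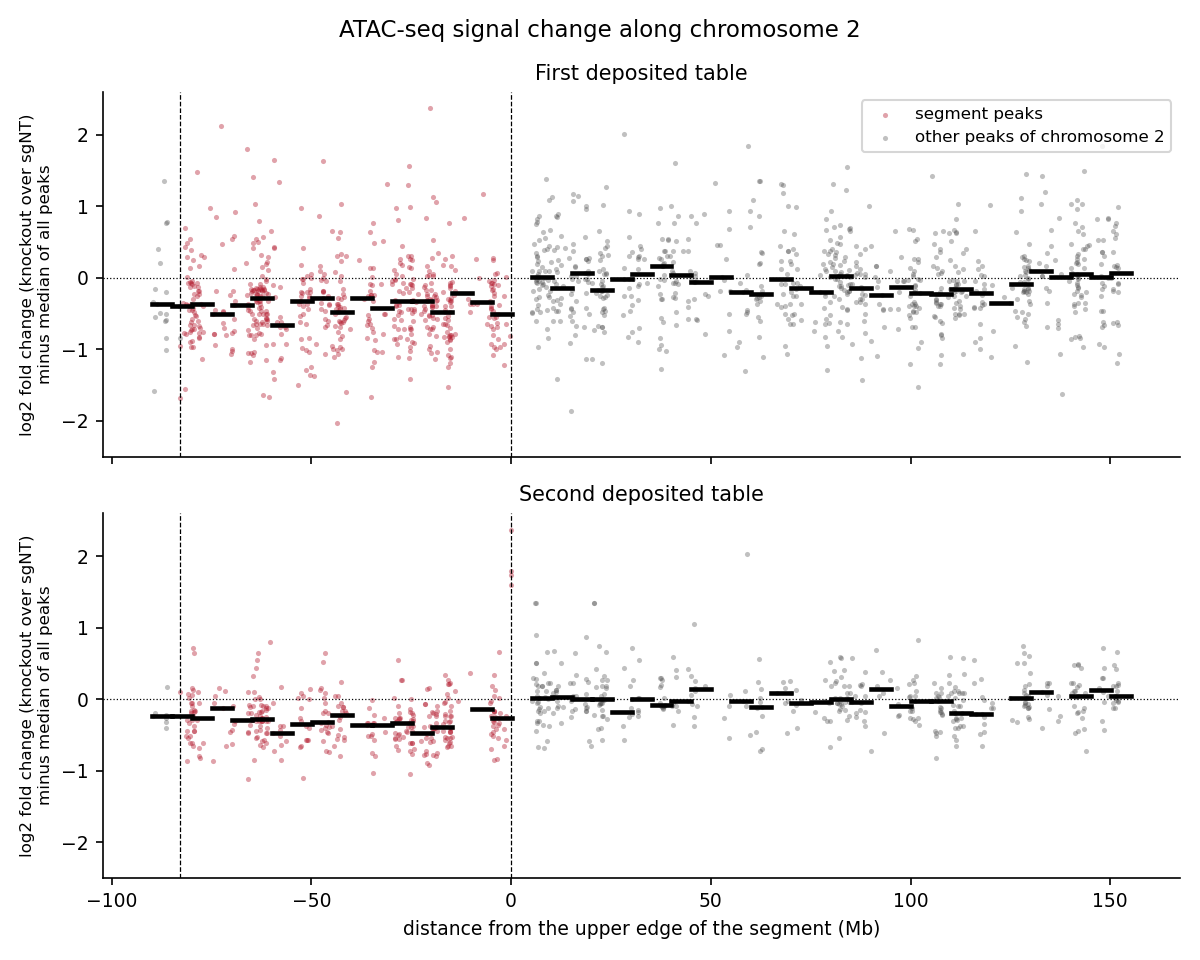
Log2 fold change of knockout over sgNT minus the median of all peaks (vertical axis) against distance from the upper edge of the segment in Mb (horizontal axis) for chromosome 2 peaks of both tables. Points are single peaks, thick lines are medians of windows of 5 Mb with at least 5 peaks, and dashed lines mark the edges; window medians in the segment run from -0.66 to -0.22 in the first table and from -0.48 to -0.12 in the second, while those just right of the gap lie at 0.02 in both.

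Along the segment no window came back to the level of the genome in the first table. All 17 windows of 5 Mb with at least 5 peaks had a median at least 0.2 below that of all peaks, against 9 of 31 on the rest of chromosome 2 and a background of 17.7% of windows. For the second table, this held for 14 of 16 segment windows, against 2 of 28 on the rest of chromosome 2 and a background of 10.5%. The lowest window of the first table, 30 to 35 Mb, had a median of -0.66 relative to all peaks (21 peaks), and it also had the lowest median in the second table, -0.48 (11 peaks), together with 65 to 70 Mb (-0.48, 27 peaks). The least shifted window was 75 to 80 Mb, with -0.22 in the first table (10 peaks) and 0.12 in the second, where it held 3 peaks and was not counted. The second table's 2 windows short of the limit were 15 to 20 Mb (-0.12, 9 peaks) and 80 to 85 Mb (-0.15, 6 peaks).

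The upper edge fell at a stretch with no peaks, and values on its far side differed. The gap ran for 5.49 Mb in the first table and 5.28 Mb in the second, and it spans the centromere of chromosome 2. In the first 5 Mb beyond the gap, where the long arm begins, the median relative to all peaks was 0.02 in the first table (56 peaks) and 0.02 in the second (40 peaks). In the last 5 Mb inside the edge it was -0.49 (38 peaks) and -0.26 (36 peaks). Just inside stood the promoters of EIF2AK3-DT, with a log2 fold change of -1.51 in the first deposited table, and of RPIA, an enzyme of the pentose phosphate pathway, with -0.86 there. Just outside stood the promoter of MRPS5, a mitochondrial ribosomal protein, with -1.36 in the first deposited table, and -1.25 in the second, where it had 99 reads in the knockout library and 236 scaled reads in the sgNT library. FAHD2A had 135 knockout against 260 sgNT reads there.

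The last 4 peaks inside the upper edge in the second table went the other way. They were narrow, overlapped no first-table peak and lay within chr2:89833188-89840629, a run near the centromere. They had 111, 68, 72 and 87 reads in the knockout library, against 75, 48, 56 and 39 scaled reads in the sgNT library. Their log2 fold changes were 0.56, 0.51, 0.36 and 1.14 in the second deposited table, and they were the 4 segment peaks of 350 with a higher level in the knockout library. Without them, the last 5 Mb had a median of -0.29 relative to all peaks.

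The lower edge was not a step. Between it and the chromosome's end, the median relative to all peaks was -0.40 in the first table (19 peaks) and -0.23 in the second (7 peaks), against -0.38 (59 peaks) and -0.22 (36 peaks) in the first 5 Mb inside. Just outside, the promoter of CMPK2, a mitochondrial nucleotide kinase, had a log2 fold change of -1.71 in the first deposited table. RNASEH1-DT, also outside, had 241 reads in the knockout library and 704 scaled reads in the sgNT library, and its values were -1.07 in the first deposited table and -1.55 in the second. The first gene inside was GRASLND, a long non-coding RNA, with -2.55 in the first deposited table but -1.13 in the second, from 145 reads in the knockout library and 317 in the sgNT library. RPS7, a small ribosomal subunit protein outside the edge, had -0.09 in the first deposited table, at a weak peak.

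Promoters, introns and intergenic peaks of the segment were each lower than the same class on the rest of chromosome 2. Promoter means a peak within 3 kb of an annotated start. Intron and exon peaks are named by the gene they were assigned to, which need not be the gene that holds the intron or exon. In the first table the median relative to all peaks was -0.46 at 321 segment promoters, against -0.13 at the other 449 of chromosome 2. It was -0.25 in 139 segment introns, against 0.11 in 196, and -0.21 at 100 intergenic segment peaks, against 0.03 at 126. The 24 exon peaks had -0.37, against -0.18 at 21, and the few peaks in the 3′ untranslated class were an exception, with -0.13 at 7 segment peaks and -0.32 at 8 others. The second table gave -0.34 at 245 segment promoters, against -0.04 at 328, -0.47 in 24 introns, against -0.09 in 35, and -0.29 at 23 intergenic peaks, against 0.04 at 19. The 50 segment peaks with no annotation were near the median of all peaks, at 0.01, against 0.20 at the other 54 of chromosome 2.

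**Figure D3:**
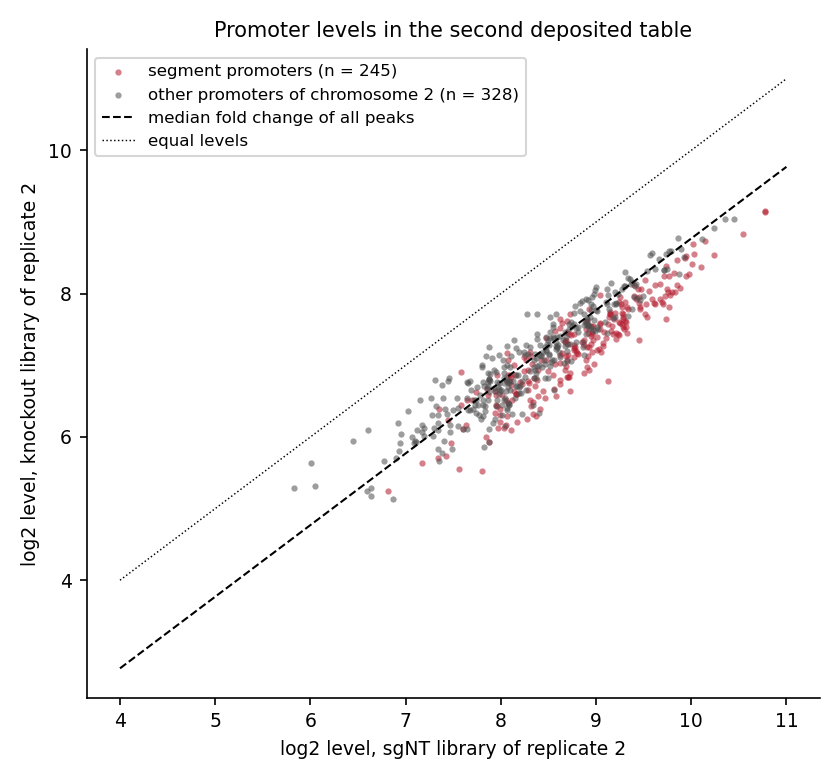
Log2 level in the knockout library (vertical axis) against the sgNT library (horizontal axis) for promoter peaks of chromosome 2 in the authors' second table. Red points are 245 segment promoters and grey points 328 other promoters; the dashed line is the median fold change of all peaks, -1.23, and most red points fall under it.

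Segment promoters had higher levels than the other promoters of chromosome 2 in both libraries of the second table. The median segment promoter had 155 reads in the knockout library and 449 scaled reads in the sgNT library, against 130 knockout and 317 sgNT reads for the rest of chromosome 2 and 160 knockout and 385 sgNT reads for promoters of all chromosomes. A promoter peak was found for 245 of 447 protein-coding genes of the segment in the first table (54.8%), against 42.3% on the rest of chromosome 2 and 44.0% on all chromosomes. For the second table, whose peaks took their genes from the first, these shares were 45.0%, 33.6% and 36.7%. Peaks were divided by level into 4 groups of equal size. In the strongest group, 97.1% of 175 segment peaks in the first table and 98.1% of 108 in the second lay below the median of all peaks, against 73.2% and 55.6% on the rest of chromosome 2 and 61.7% and 56.6% of all peaks. In the weakest group these were 46.7% of 135 and 55.7% of 61, against 30.0% and 34.7% on the rest of chromosome 2 and 26.7% and 34.5% of all peaks, and the segment median relative to all peaks was 0.06 in the first and -0.07 in the second table. With the level trend of all peaks removed, the segment median was -0.42 in the weakest and -0.40 in the strongest group of the first table, and -0.30 and -0.34 in those of the second.

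**Figure D4:**
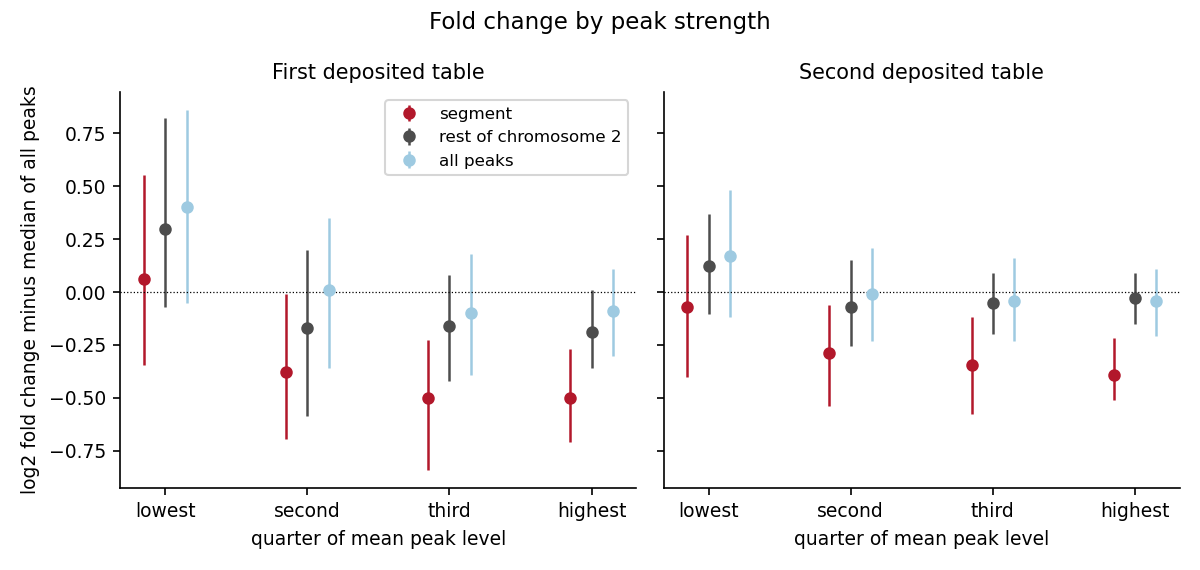
Median log2 fold change minus the median of all peaks (vertical axis) in 4 equal groups by mean peak level (horizontal axis), with bars for the quartiles, for the segment, the rest of chromosome 2 and all peaks, in both tables. The segment lies under the other groups in each level group, with -0.50 in the highest group of the first table and -0.39 in that of the second.

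The 5 strongest segment peaks of the first table were promoters of SERTAD2, PPM1B, MXD1, XPO1 and FOXN2, and those of the second were the same genes with FAM228B in place of XPO1. SERTAD2, a regulator of E2F transcription, had the highest peak in both tables, at chr2:64750658-64751709 in the second, with 568 reads in the knockout library and 1746 scaled reads in the sgNT library. Its log2 fold change was -1.30 in the first deposited table and -1.62 in the second. PPM1B had 564 reads in the knockout library and 1746 in the sgNT library, with -1.24 in the first deposited table and -1.62 in the second. MXD1, a partner of MAX that opposes MYC, had 455 knockout against 1489 sgNT reads, with -0.94 and -1.71 in the deposited tables. FOXN2, a forkhead factor, had 425 knockout against 1128 sgNT reads. XPO1, the main exporter of proteins from the nucleus, had 331 knockout against 1097 sgNT reads at the promoter at chr2:61537979-61538983, with -1.39 in the first deposited table and -1.73 in the second. FAM228B had 372 knockout against 1209 sgNT reads, with -1.70 in the second deposited table. Relative to the median of all peaks the 5 promoters of the first table's order ranged from -0.56 to -0.07 in the first table and from -0.50 to -0.17 in the second.

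Among peaks at or above the median level, 2 of the 8 lowest of the first table and 5 of the 8 lowest of the second were promoters. Promoters made up 54.2% and 70.0% of all segment peaks in these tables. In the third and the strongest level group of the first table they were 93 of 158 and 151 of 175 segment peaks. The lowest in the first deposited table was an intron peak assigned to EPAS1, which encodes the hypoxia-inducible factor HIF-2α, at chr2:46315149-46315729, with -2.90. The EPAS1 promoter had -1.88 there and -1.79 in the second deposited table, where it held 92 reads in the knockout library and 317 in the sgNT library. The next lowest of the first deposited table were GRASLND, an intergenic peak upstream of PPP1R21 (-2.46), an exon peak assigned to LINC00299 (-2.42) and an intergenic peak near BOLA3 (-2.39). They were followed by an intergenic peak near LINC01936 (-2.28), the LBH promoter (-2.18) and an intron peak assigned to EML6 (-2.11). LBH, a transcriptional cofactor of limb and heart development, had 197 reads in the knockout library and 481 in the sgNT library, a log2 fold change of -1.29 in the second deposited table. The GRASLND and LBH promoters were thus far from the median of all peaks in the first table (-1.68 and -1.31) and near it in the second (0.10 and -0.06).

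WDCP had the lowest strong peak of the second deposited table, -2.35, from 110 reads in the knockout library and 560 in the sgNT library, while its value in the first deposited table was -1.28. An intron peak assigned to CDC42EP3, an effector of the small GTPase CDC42, had 111 knockout against 556 sgNT reads (-2.33 in the second deposited table, -0.88 in the first). An intron peak assigned to MIR3126 had 100 knockout against 446 sgNT reads, and an intron peak assigned to ARHGAP25 had 96 knockout against 419 sgNT reads. A promoter peak of ID2-AS1, a transcript antisense to the differentiation inhibitor gene ID2, had 164 knockout against 699 sgNT reads, that of USP39, a splicing factor, 100 knockout against 425 sgNT reads, and that of IMMT 201 knockout against 849 sgNT reads. A NAGK promoter peak, of an enzyme of amino sugar salvage, had 84 reads in the knockout library and 340 in the sgNT library. These 8 peaks had log2 fold changes of -2.35 to -2.02 in the second deposited table.

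Strong peaks reached at most 0.53 above the median of all peaks in the first and 0.26 in the second table. In the first table the highest was the promoter of FAM136A, a mitochondrial protein, with a log2 fold change of -0.34 in the first deposited table, although the second gave -2.01 there, from 95 reads in the knockout library and 383 in the sgNT library. It was followed by the promoter of TMEM17 (-0.42), an intron peak of TOGARAM2 (-0.58) and promoter peaks of SH2D6 (-0.62) and EPCAM (-0.63). In the second deposited table the highest was the promoter of B3GNT2, a glycosyltransferase, with 201 reads in the knockout library and 393 in the sgNT library (-0.97). BIRC6, an inhibitor of apoptosis, had 252 knockout against 526 sgNT reads (-1.06 in the second deposited table), although its promoter had -1.49 in the first. Of 298 segment peaks joined between the tables, 277 lay below the median of all peaks in the first and 261 in the second table, beside 57.0% and 53.5% of all 11117 joined peaks. Those above it in both were 2.01%, beside 14.7% on the rest of chromosome 2 and 21.9% of all joined peaks. They were assigned to QPCT, ARHGAP25, EPCAM-DT, SH2D6, TMEM17 and OTOF, and each still had fewer reads in the knockout library on the deposited scale.

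**Figure D5:**
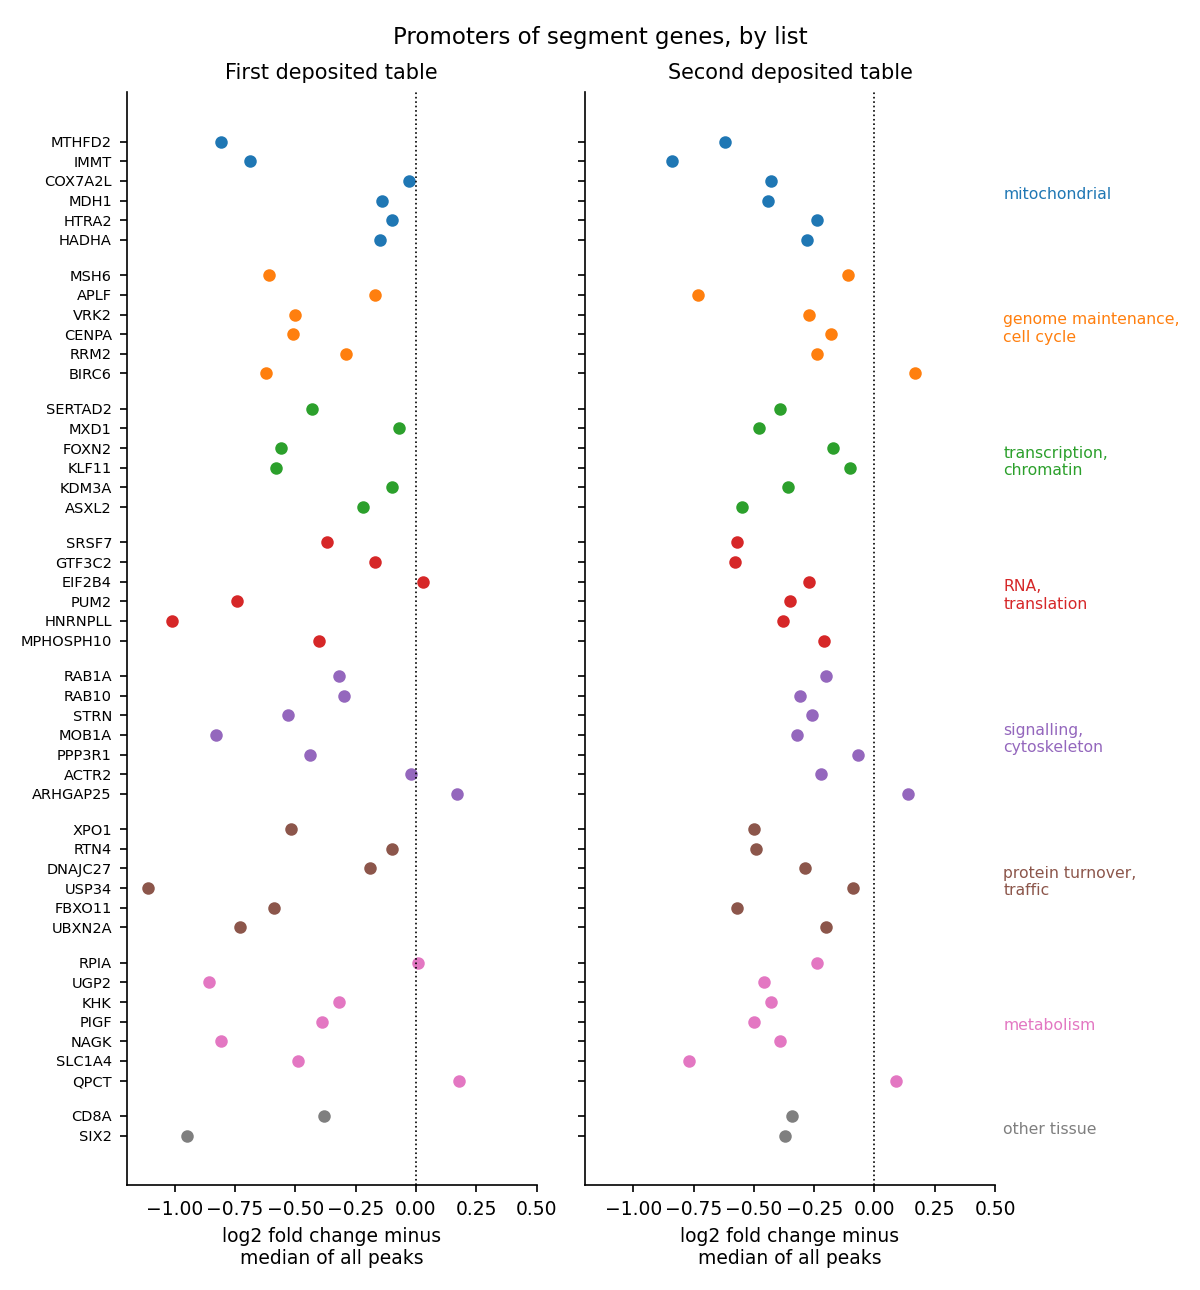
Log2 fold change minus the median of all peaks (horizontal axes) at promoters of segment genes with a peak in the authors' first table (left) and second table (right), grouped by gene list from top to bottom. Most points lie left of the dotted line at the median of all peaks; ARHGAP25 and QPCT lie right of it in both panels, at 0.17 and 0.18 in the first table and at 0.14 and 0.09 in the second.

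The functional lists were read against all segment promoter peaks, of which 89.1% (first table) and 88.6% (second table) lay below the median of all peaks. These shares include weak peaks. In the first table the share was 55.6% in the weakest and 96.7% in the strongest level group, so the lists are not matched to it by level. Each gene counts by its strongest promoter peak, and medians are relative to all peaks, whose share below the median was 49.3% in the first and 49% in the second table. Of 18 genes of the mitochondrial list with a promoter peak in the first table, 16 lay below the median (list median -0.29), and all 17 with a peak in the second did (-0.43). MTHFD2 had 231 reads in the knockout library and 832 scaled reads in the sgNT library, with -1.68 in the first deposited table and -1.85 in the second. IMMT had -1.56 and -2.07 in the deposited tables. COX7A2L, a factor of respiratory supercomplexes, had 224 knockout against 704 sgNT reads, and MDH1, which the list includes although its malate dehydrogenase is cytosolic, 221 knockout against 704 sgNT reads.

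Of the genes of genome maintenance and the cell cycle, all 14 with a promoter peak in the first table lay below the median (list median -0.50), and 11 of 13 did in the second (-0.24). MSH6, a mismatch repair protein, had 335 reads in the knockout library and 849 scaled reads in the sgNT library. APLF, a DNA end-joining factor, had 224 knockout against 873 sgNT reads, CENPA, the centromeric histone variant, 237 knockout against 630 sgNT reads, and RRM2, a subunit of ribonucleotide reductase, 212 knockout against 588 sgNT reads. For RRM2, the strongest promoter peaks of the tables did not overlap, with -1.16 at chr2:10120112-10120823 in the first deposited table and -1.47 at chr2:10122187-10123259 in the second.

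Of 17 genes of transcription and chromatin with a promoter peak in the first table, all 17 lay below the median (list median -0.43), and 11 of 12 did in the second (-0.38). KDM3A, a histone H3 lysine 9 demethylase, had 343 reads in the knockout library and 1031 scaled reads in the sgNT library. ASXL2, a Polycomb-associated protein, had 260 knockout against 891 sgNT reads, and KLF11, a Krüppel-like factor, 416 knockout against 1038 sgNT reads. The promoter of BCL11A, a repressor of fetal globin genes, had -1.54 in the first deposited table. DNMT3A and REL had no promoter peak in the first table, from which peaks of the second took their genes.

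Of 19 genes of RNA processing and translation, 16 lay below the median in the first table (list median -0.37), and 16 of 18 did in the second (-0.34). SRSF7, a splicing regulator, had 252 reads in the knockout library and 879 scaled reads in the sgNT library, and HNRNPLL, a splicing regulator of blood cells, 204 knockout against 622 sgNT reads. EIF2B4, a subunit of a translation initiation exchange factor, stood at 0.03 relative to all peaks in the first table and at -0.27 in the second. Of 20 genes of signalling and the cytoskeleton, 19 lay below the median in the first table (-0.45) and 12 of 14 in the second (-0.31). RAB1A, a GTPase of transport to the Golgi, had 362 knockout against 976 sgNT reads, and MOB1A, a cofactor of LATS kinases, 220 knockout against 648 sgNT reads. ARHGAP25 had 117 reads in the knockout library and 249 in the sgNT library.

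Of 18 genes of protein turnover and traffic, 17 lay below the median in the first table (list median -0.49), and 14 of 15 did in the second (-0.30). USP34, a deubiquitinase, had -1.98 in the first deposited table and -1.32 in the second, from 292 reads in the knockout library and 729 in the sgNT library. FBXO11, a ubiquitin ligase subunit, had 209 knockout against 729 sgNT reads, and RTN4, a reticulon of the endoplasmic reticulum, 278 knockout against 923 sgNT reads. Of 12 metabolic genes, 10 lay below the median in the first table (-0.57), and 10 of 11 did in the second (-0.39). UGP2, which makes UDP-glucose, had 267 knockout against 861 sgNT reads, and the amino acid transporter gene SLC1A4 had 122 knockout against 488 sgNT reads. QPCT, a glutaminyl cyclase, had 91 reads in the knockout library and 201 in the sgNT library.

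Few genes known from other tissues had a promoter peak assigned to them. Of 23 such genes of the short arm, 5 had one in the first and 2 in the second table. The shares over the segment's protein-coding genes were 54.8% and 45.0%. Any peak was assigned to 8 of the 23 in the first table. A peak at a gene's start can be assigned to a neighbouring gene, so genes without one were not shown to be closed. CD8A, a T cell co-receptor, had 141 reads in the knockout library and 419 scaled reads in the sgNT library. SIX2, a homeobox gene of kidney progenitors, had 84 knockout against 254 sgNT reads, with -1.82 in the first deposited table and -1.60 in the second.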

How the data were processed

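ATAC-seq libraries of Kasumi-1 cells, 2 SETD8 knockout and 2 sgNT, were grouped by their titles. Per the submitters' processing notes, the tools were Bowtie2, cutadapt, MACS2 2.1.2, SAMtools, ChIPseeker and deepTools with build hg38; read shifting, duplicate removal and scaling are not given in the sources used here. Per the file headers, the authors deposited 2 peak tables with a mean log2 level, a log2 fold change, a p-value and an adjusted p-value per peak; the second table also gives a log2 level of each library, per the file headers. In the first table these columns are numbered and were identified by order and range; 2 further value columns with no named library were not used.

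In the second table, deposited log2 levels were whole reads in the knockout library (100% of 2363 levels up to 6, within rounding) and reads multiplied by 0.918 in the sgNT library (100% of 449); scaled reads are 2 raised to the deposited level. The count test planned for the 4 libraries needs counts of each library. The peak tables give a level per named library only for the knockout and sgNT libraries of replicate 2, so that test was not run. The authors' own adjusted p-values are given in its place. Tables were scaled separately, so fold changes were summarised within a table. Second-table peaks took the annotation of the first-table peak they overlapped most, by at least 1 bp. Named peaks were the 8 lowest and 8 highest per table at or above the median level, the 4 nearest each edge, the 5 strongest, and up to 6 members per gene list; KMT5A, DNMT3A, REL, BCL11A, RPS7 and other genes named beside them were chosen after their values were seen. The members and lists were chosen with earlier results of these data known.

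Python 3.11.15 with numpy 2.4.6, pandas 2.3.3, scipy 1.17.1 and matplotlib 3.10.9, and R 4.3.3 with limma 3.58.1, were used. The limma fit was tested on simulated data with independent noise in its 2 columns, which does not cover tables that share libraries. Other peak sets, limits and centrings were tried.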

Additional observations from a re-analysis of the deposited data

How the results depend on the processing

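The difference between the segment and the rest of chromosome 2 stayed negative in both tables under each of the 9 alternatives run. It was -0.40 against the other chromosomes in the first table and -0.24 without promoters in the second. These alternatives summarise again the second table's fold changes, which chose the segment, and those of the first table, which may share libraries with it. The sign is therefore a description and not a check of the choice. The segment median in the first table was -1.37 at or above the median level, -1.33 at promoters and at joined peaks, -1.13 elsewhere, -1.31 with the strongest peak of each gene, -0.39 with the level trend removed and -0.38 relative to all peaks; in the second it was -1.43 without promoters, -0.30 with the trend removed and -0.31 relative to all peaks. Counts of segment peaks lower by at least 1 were 178 and 203 at a limit of 1.5, 55 and 4 relative to all peaks, and 201 in the second table at or above the median level. At an unadjusted p under 0.05 the first table had 27. The replicate block, with the tables in place of replicates, on the fold changes that chose the segment, called 0 segment peaks when centred and 297 as deposited, an alternative chosen after seeing the data. The share of chromosome 2 reads gave a log2 ratio of -0.16 in place of -0.32. Of the segment peaks named for their place at an edge, their level or a lowest or highest fold change, 28 of 28 in the first table and 25 of 29 in the second had a negative fold change, and of these 9 in each table stood above the median of all peaks. Leaving out a replicate was not run, because each table holds 1 comparison and the second has 1 library per group. Depth limits weak peaks, and the cause of these shifts was not tested.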

Other observations

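Promoters of long non-coding RNA genes in the segment had values close to those of protein-coding genes there. In the first table the median relative to all peaks was -0.48 at 33 segment promoter peaks of long non-coding RNAs, against -0.16 at 44 on the rest of chromosome 2. In the second table it was -0.34 at 21 peaks, against -0.03 at 33. Protein-coding promoter peaks had -0.46 at 283 and -0.34 at 220.

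Several genes carried more than 1 peak with unlike values. SERTAD2 had 4 peaks in each table, with log2 fold changes from -1.83 to -0.95 in the authors' first deposited table and from -2.28 to -1.37 in the second, and its lowest in the second was an exon peak with 71 reads in the knockout library and 345 scaled reads in the sgNT library. SPRED2, an inhibitor of RAS and MAP kinase signalling, had 5 peaks in the first deposited table, from -1.78 to -1.18. The highest value of a segment peak in the first deposited table, 1.51, was at a weak intron peak of AAK1, a kinase of clathrin-coated vesicles, whose promoter had -1.82 there and -1.83 in the second deposited table, from 119 reads in the knockout library and 425 in the sgNT library. MTIF2, a mitochondrial initiation factor, had -0.73 in the first deposited table and -2.27 in the second, where it held 46 reads in the knockout library and 223 in the sgNT library. PNPT1, an RNA-degrading enzyme of mitochondria, had -1.74 and -2.02 in the deposited tables.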
